A study of Mus musculus with 15 samples.

Results

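The mitochondrial ribosome is encoded in the nucleus apart from its RNAs, and its protein genes were taken here as every protein-coding gene of the GRCm39 annotation whose symbol starts with Mrpl or Mrps followed by a digit, together with Eral1. This gave 79 of 21770 protein-coding genes: 49 Mrpl genes, 29 Mrps genes and Eral1. A further 6 processed pseudogenes with such symbols were left out. Mitoribosomes stand at the inner membrane and translate the messenger RNAs of mitochondrial DNA, all of which encode subunits of the respiratory chain and ATP synthase, so the abundant mitochondria of brown fat depend on them. ERAL1 is a GTPase that binds the 12S ribosomal RNA while the small subunit is assembled, and it is a known substrate of CLPP, the proteolytic part of a matrix protease. Trimethylated lysine 4 of histone H3 (H3K4me3) lies over the first nucleosomes downstream of active or poised starts of transcription.

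H3K4me3 ChIP–seq was performed in mBA cells, mouse brown preadipocytes that were differentiated in culture. The study's methods describe them as immortalized with the SV40 large T antigen, whereas the labels call them primary. There were 4 ChIP samples of each condition, beside 1 input sample of each: untreated wild-type cells (WT), wild-type cells given octyl d-2HG, a cell-permeable form of 2-hydroxyglutarate, at 500 µM for 72 h (WT + 2HG), and untreated cells that lack CLPP (CLPP-KO). The labels state that uridine was added to the medium of CLPP-KO cells because of their growth defect, so loss of CLPP and uridine cannot be told apart here. The study states that the lines were made in its own laboratory from brown fat of newborn control and knockout mice, with males and females pooled. The agent was dissolved in DMSO.

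Each condition has a single peak list, which the authors called on its 4 ChIP samples jointly. The WT list holds 12342 peaks, the WT + 2HG list 14059 and the CLPP-KO list 15118. No list holds read counts. The study states a single sequencing depth for the experiment, so the depth of each sample is unknown. With 1 list a condition, no difference between lists can be set against the spread between replicates, and all differences below are descriptions without a test. A gene had a promoter peak when a peak overlapped 2000 bp either side of any of its annotated transcript starts. The strength of a peak is given as its area percentile, the percentage of the same list's peaks with a smaller area under the curve of −log10 p, since areas are not scaled between lists. Where a gene had several promoter peaks, the one with the largest area was used. Of 10 brown adipocyte markers, Pparg and Prdm16 had a promoter peak in WT. There were 4 such markers in WT + 2HG, with Cidea and Plin1 added, and 5 in CLPP-KO, with Ebf2 as well. Ucp1, Fabp4, Adipoq, Ppargc1a and Dio2 had none in any list. Of 10 markers of other cells, the preadipocyte genes Pdgfra and Dlk1 had one in WT. Epcam also had one in WT + 2HG and CLPP-KO, at percentiles 27.7 and 50.9, and Myod1 in CLPP-KO alone, at 10.7. That made 3 markers with 2HG and 4 in CLPP-KO. The endothelial and leukocyte genes Pecam1, Cdh5, Ptprc, Adgre1 and Cd68 had none, nor did Myf5. The part of these marker differences in the results below was not tested. The promoter peak of Clpp itself stood at percentiles 39.9, 45.2 and 43.4 in WT, WT + 2HG and CLPP-KO, and a peak there does not check the deletion.

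The stretches of DNA below are examples of genes whose peak was gained, missing, weak, lower than in WT or strong. Each runs 5′ to 3′ on the gene's strand and ends at the base before the canonical transcript start in GRCm39. It holds up to 120 bases and no annotated exon of a protein-coding gene. Capitals mark the motifs searched, on either strand: the core of the NRF1 site (GCGCATGC), the ETS site CCGGAAG, the GGGCGG box of SP factors, CCAAT, AAGATGGC of YY1, TATAAA and TGACGTCA of CREB. Mrps23 had a peak in both treated lists and none in WT, and Mrpl22 had one in CLPP-KO alone.
Mrps23, chr11:88095056-88095175, plus strand: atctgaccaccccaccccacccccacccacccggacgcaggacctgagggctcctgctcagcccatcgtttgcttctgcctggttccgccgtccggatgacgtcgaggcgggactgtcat
Mrpl22, chr11:58062355-58062474, plus strand: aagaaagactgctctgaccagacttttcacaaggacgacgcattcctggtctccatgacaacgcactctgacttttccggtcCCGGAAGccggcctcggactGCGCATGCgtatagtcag
Eral1 had a weak peak in each list, and Mrpl17 and Mrps9 stood lower in both treated lists than in WT.
Eral1, chr11:77971224-77971343, minus strand: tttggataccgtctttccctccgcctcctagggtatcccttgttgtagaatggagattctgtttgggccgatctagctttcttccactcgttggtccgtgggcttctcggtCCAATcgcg
Mrpl17, chr7:105460373-105460492, minus strand: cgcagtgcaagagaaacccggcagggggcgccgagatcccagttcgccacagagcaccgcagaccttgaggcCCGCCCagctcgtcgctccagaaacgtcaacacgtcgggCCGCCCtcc
Mrps9, chr1:42890228-42890347, plus strand: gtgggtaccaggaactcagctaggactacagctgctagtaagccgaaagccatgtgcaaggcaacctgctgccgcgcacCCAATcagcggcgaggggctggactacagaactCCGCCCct
Mrps26 had one of the stronger peaks of the set, whereas Mrpl45 and Mrpl50 had none in any list.
Mrps26, chr2:130405538-130405657, plus strand: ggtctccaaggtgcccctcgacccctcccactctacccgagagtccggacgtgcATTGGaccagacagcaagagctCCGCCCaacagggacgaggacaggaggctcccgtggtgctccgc
Mrpl45, chr11:97206422-97206541, plus strand: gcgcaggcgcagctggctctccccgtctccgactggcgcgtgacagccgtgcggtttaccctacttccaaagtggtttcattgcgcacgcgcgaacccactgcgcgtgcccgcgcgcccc
Mrpl50, chr4:49521138-49521175, minus strand: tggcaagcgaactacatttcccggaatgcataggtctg
Mrps11 and Mrpl46 face away from each other, and the whole sequence between their canonical starts is 29 bases, shown on the Mrps11 strand.
Mrps11, chr7:78432838-78432866, plus strand: ccatgaggcaacgcgggccggcgaggggc
At Mrpl45 a missing peak did not go with a lack of CpG: the 120 bases before its start held 17 CpG, more than the 8 before Mrps26 or the 8 before Eral1. Around the canonical starts, from 250 bases before to 50 after, the median GC content of the 79 genes was 57.3%, beside 54.3% over all protein-coding genes, and their median ratio of observed to expected CpG was 0.75 beside 0.52. Among the 71 genes with a WT promoter peak the ratio was 0.76, close to the 0.74 of all protein-coding genes with such a peak, and among the 8 without one it was 0.70. The ETS site lay in this window in 24 of the 79 genes (30.4%), beside 10.3% of all protein-coding genes, 15.9% of those with a WT promoter peak and 30.1% of cytosolic ribosomal protein genes. The NRF1 core lay in 7 (8.86%), beside 3.68% of all, and AAGATGGC in 6 (7.59%), beside 2.47%. GGGCGG lay in 33 (41.8%; 42.5% of all), CCAAT in 28 (35.4%; 39.9%), TATAAA in 8 (10.1%; 13.2%) and TGACGTCA in 2 (2.53%; 2.44%). Matches could overlap each other, and a match describes letters and not binding. None of the 8 genes without a WT peak held GGGCGG, whereas 33 of the 71 with a peak did (46.5%), beside 63.1% of all protein-coding genes with a WT peak and 15.1% of those with a peak in no list, and Mrpl22 held both the ETS site and the NRF1 core.

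Most mitoribosomal genes carried H3K4me3 at a start in every condition. A promoter peak was present at 71 of the 79 genes in WT (89.9%, 95% Wilson interval 81.3 to 94.8%), 72 with 2HG treatment (91.1%, 82.8 to 95.6%) and 73 in CLPP-KO (92.4%, 84.4 to 96.5%). The intervals cover counting error over genes only. Over all protein-coding genes the shares were 51.3%, 56.4% and 58.2%. The cytosolic ribosomal protein genes, 83 by symbol, had promoter peaks at 76, 78 and 76, and 85 subunit genes of oxidative phosphorylation at 72, 74 and 77. Of the mitoribosomal genes 69 had a promoter peak in all lists and 3 in none. By symbol, 42, 42 and 43 of the 49 Mrpl genes had one, and 28, 29 and 29 of the 29 Mrps genes. Genes whose protein has a bacterial counterpart, 48 of the set, were marked at 43, 43 and 44, and 27, 28 and 28 of the 30 others besides Eral1 were.

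**Figure D1:**
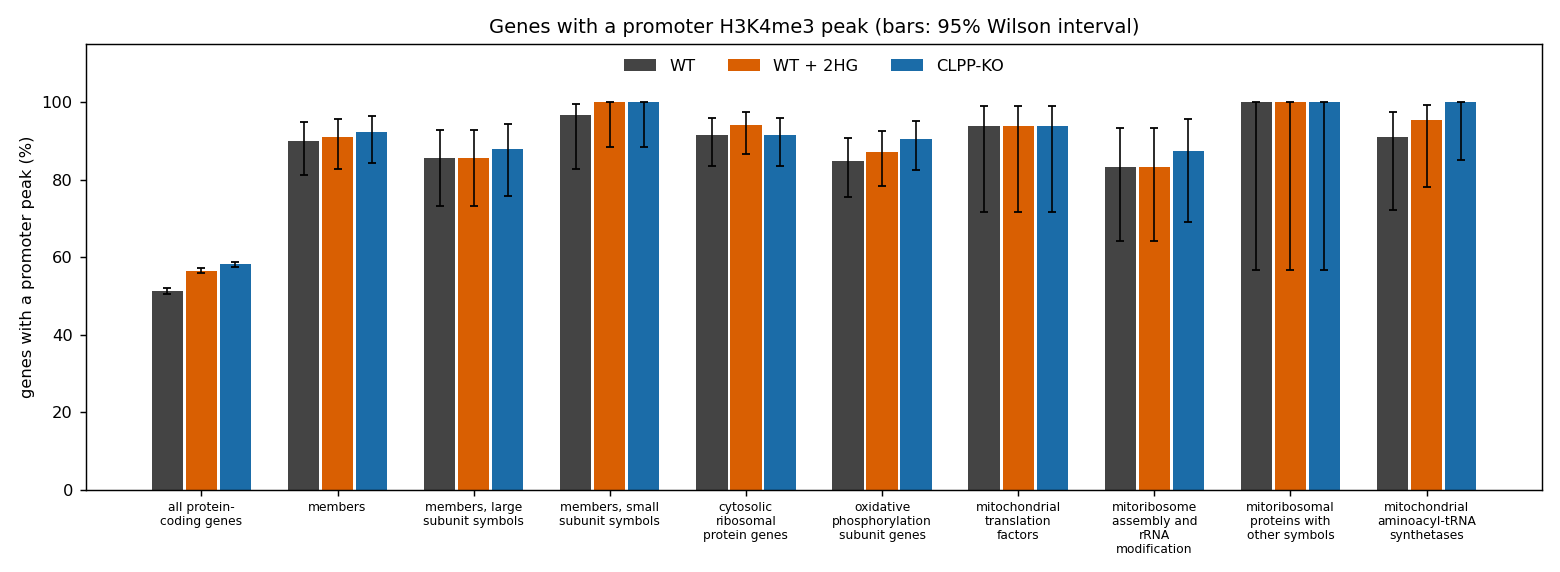
Share of genes with a promoter H3K4me3 peak in the WT, WT + 2HG and CLPP-KO lists (y axis, percent, from 0) for all protein-coding genes, the 79 members (mitoribosomal genes and Eral1), their Mrpl and Mrps genes and related gene groups, with 95% Wilson intervals as error bars. The members stand at 89.9, 91.1 and 92.4%, beside 51.3, 56.4 and 58.2% of all protein-coding genes.

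The genes without a mark in at least 1 list numbered 10, and 9 of them were Mrpl genes. Mrpl24, Mrpl45 and Mrpl50 had no promoter peak in any list. MRPL45 is the protein that tethers the mitoribosome to the inner membrane, and MRPL24 and MRPL50 are further large subunit proteins. In WT the nearest peak lay 8114 bp from a start of Mrpl24, 35027 bp from Mrpl45 and 76003 bp from Mrpl50. No peak lay at the start that Mrpl50 shares with Zfp189 either, whose canonical start is 78 bp away on the opposite strand. The 2000 bp limit fell between Mrpl54, whose single WT peak lay 1503 bp from its nearest start, and Mrpl22, whose nearest WT peak was 3114 bp away. On chromosome 11, which holds 12 of the genes, 4 had no WT peak: Mrpl22, Mrpl27, Mrpl45 and Mrps23. The share of all protein-coding genes on that chromosome without a WT peak was not computed, so this count is not read as a trait of the chromosome.

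Mrps23 was the gene with the clearest gain. Its promoter had no WT peak within 104249 bp, a peak of 839 bp at percentile 23.8 in WT + 2HG, and one of 1235 bp at percentile 32.9 in CLPP-KO. It was also the single gained gene when every list was limited to its 12342 strongest peaks, where the percentiles were 13.2 and 17.8. MRPS23 is a small subunit protein without a bacterial counterpart. The other gains were weak peaks. In WT + 2HG, Mrpl35 gained a peak of 291 bp at percentile 1.8. In CLPP-KO, Mrpl1 gained one of 317 bp at percentile 3.2, Mrpl22 one of 416 bp at 9.8 and Mrpl27 one of 585 bp at 7.3, which also covered a start of Eme1. Thus 2 genes were gained in WT + 2HG and 4 in CLPP-KO out of the 8 without a WT peak, and over all protein-coding genes without one 11.6% and 14.9% were gained. Mrpl16 had a WT peak at percentile 8.2 and none in either treated list, and Mrpl30 stood at percentile 2.4 in WT and 6.7 in WT + 2HG and had none in CLPP-KO. These are the genes lost, 1 in WT + 2HG and 2 in CLPP-KO, beside 0.914% and 0.672% of all protein-coding genes with a WT peak. At a summit p of at most 1e-05 the counts were 13 and 8 gained and 0 lost in both, since that limit left 56 of the genes with a WT peak.

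Where they were marked, the mitoribosomal genes had peaks of smaller area than the typical marked gene. Their median area percentile was 46.2 in WT (quartiles 23.3 and 69.2), 50.3 with 2HG treatment (26.5 and 67.0) and 47.6 in CLPP-KO (30.5 and 73.1). Over all protein-coding genes with a promoter peak the medians were 59.3, 60.6 and 62.0. The cytosolic ribosomal protein genes had medians of 68.0, 62.5 and 67.9, and the oxidative phosphorylation genes 55.7, 55.1 and 56.4. The percentile exceeded 50, the middle of the list, in 34, 37 and 36 of the marked mitoribosomal genes, beside 6757 of 11159, 7656 of 12284 and 8126 of 12663 of all marked protein-coding genes. Their peaks were narrower, with median widths of 712 bp, 871.5 bp and 803 bp, beside 901, 1002 and 990 bp over all protein-coding genes. Area grows with width, so width and area are not separate results. By area per base the mitoribosomal medians were 52.4, 52.4 and 59.2, and by summit −log10 p they were 51.1, 55.2 and 55.6. Medians of all protein-coding genes on these scales were not computed. By area percentile, the Mrpl genes had medians of 49.7, 56.1 and 51.3 and the Mrps genes 41.7, 48.4 and 47.6. Genes with a bacterial counterpart had medians of 44.9, 49.8 and 46.6 and the others 56.9, 56.9 and 55.7.

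**Figure D2:**
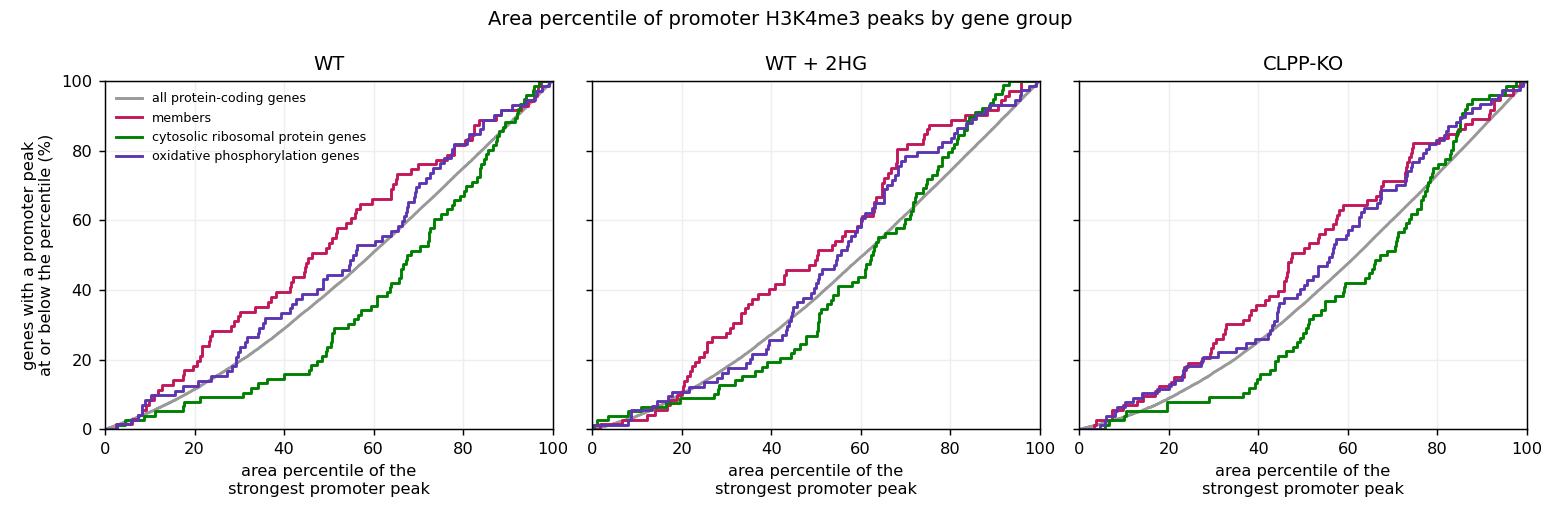
Cumulative share of genes with a promoter peak (y axis, percent) at or below each area percentile of the strongest promoter peak (x axis), 1 panel per list, for all protein-coding genes, the mitoribosomal genes with Eral1 (members), cytosolic ribosomal protein genes and oxidative phosphorylation genes. The curve of the members runs left of that of all genes over most of the range, with medians of 46.2, 50.3 and 47.6.

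The order of strength among the genes was broad. Mrpl14, whose protein lies at the interface of the subunits, stood at percentiles 96.4, 95.8 and 96.9 in the order WT, WT + 2HG, CLPP-KO, which is kept below. Mrps34, a small subunit gene, stood at 96.8, 91.4 and 98.4, and Mrps7 at 94.4, 93.1 and 96.8. Mrpl48 stood at 97.3, 95.9 and 91.8. These and Mrps6 were the 5 genes at or above percentile 90 in all lists. In WT the peak counted for each also covered a start of another protein-coding gene. The other genes were Tmem63b (Mrpl14), Eme2 and Nme3 (Mrps34), Gga3 (Mrps7), Rab6a (Mrpl48), and Slc5a3 and Gm49711 (Mrps6). The share of all protein-coding genes at that level in all lists was not computed. The peak counted for Mrpl48 lay far upstream of its canonical start (peak ends at −24499, −24474 and −24436 bp), at another annotated start beside one of Rab6a, and within 2000 bp of the canonical start there was no peak in WT or CLPP-KO and one at percentile 2.9 in WT + 2HG. The strongest peak of Mrpl2 likewise lay at Cul7, and at the canonical start of Mrpl2 the percentiles were 25.2, 29.2 and 38.0 in place of 46.2, 59.2 and 57.7. All other genes kept the same peak when the canonical start alone was used.

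At the low end, Mrps12 stood at 11.8, 14.1 and 3.7, with a peak of 319, 353 and 271 bp. MRPS12 is the small subunit protein of the decoding centre, and its gene shares the peak with a start of Sars2, the mitochondrial seryl-tRNA synthetase, 129 bp away. Mrps17 stood at 6.1, 20.6 and 14.3 and Mrps21 at 7.3, 21.8 and 13.0, both lowest in WT. Eral1 belonged to this group as well. Its percentile was 9.1 in WT, against 21.2 with 2HG and 16.9 in CLPP-KO, and its peak was 419, 600 and 432 bp wide. Both treated values of Eral1 were above WT in the deposited lists, by 12.1 and 7.8, but with lists of equal size the difference was 1.2 in WT + 2HG and Eral1 had no peak in CLPP-KO. There were 7 genes below percentile 25 in all lists, and the share of all protein-coding genes below it in all lists was not computed.

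**Figure D3:**
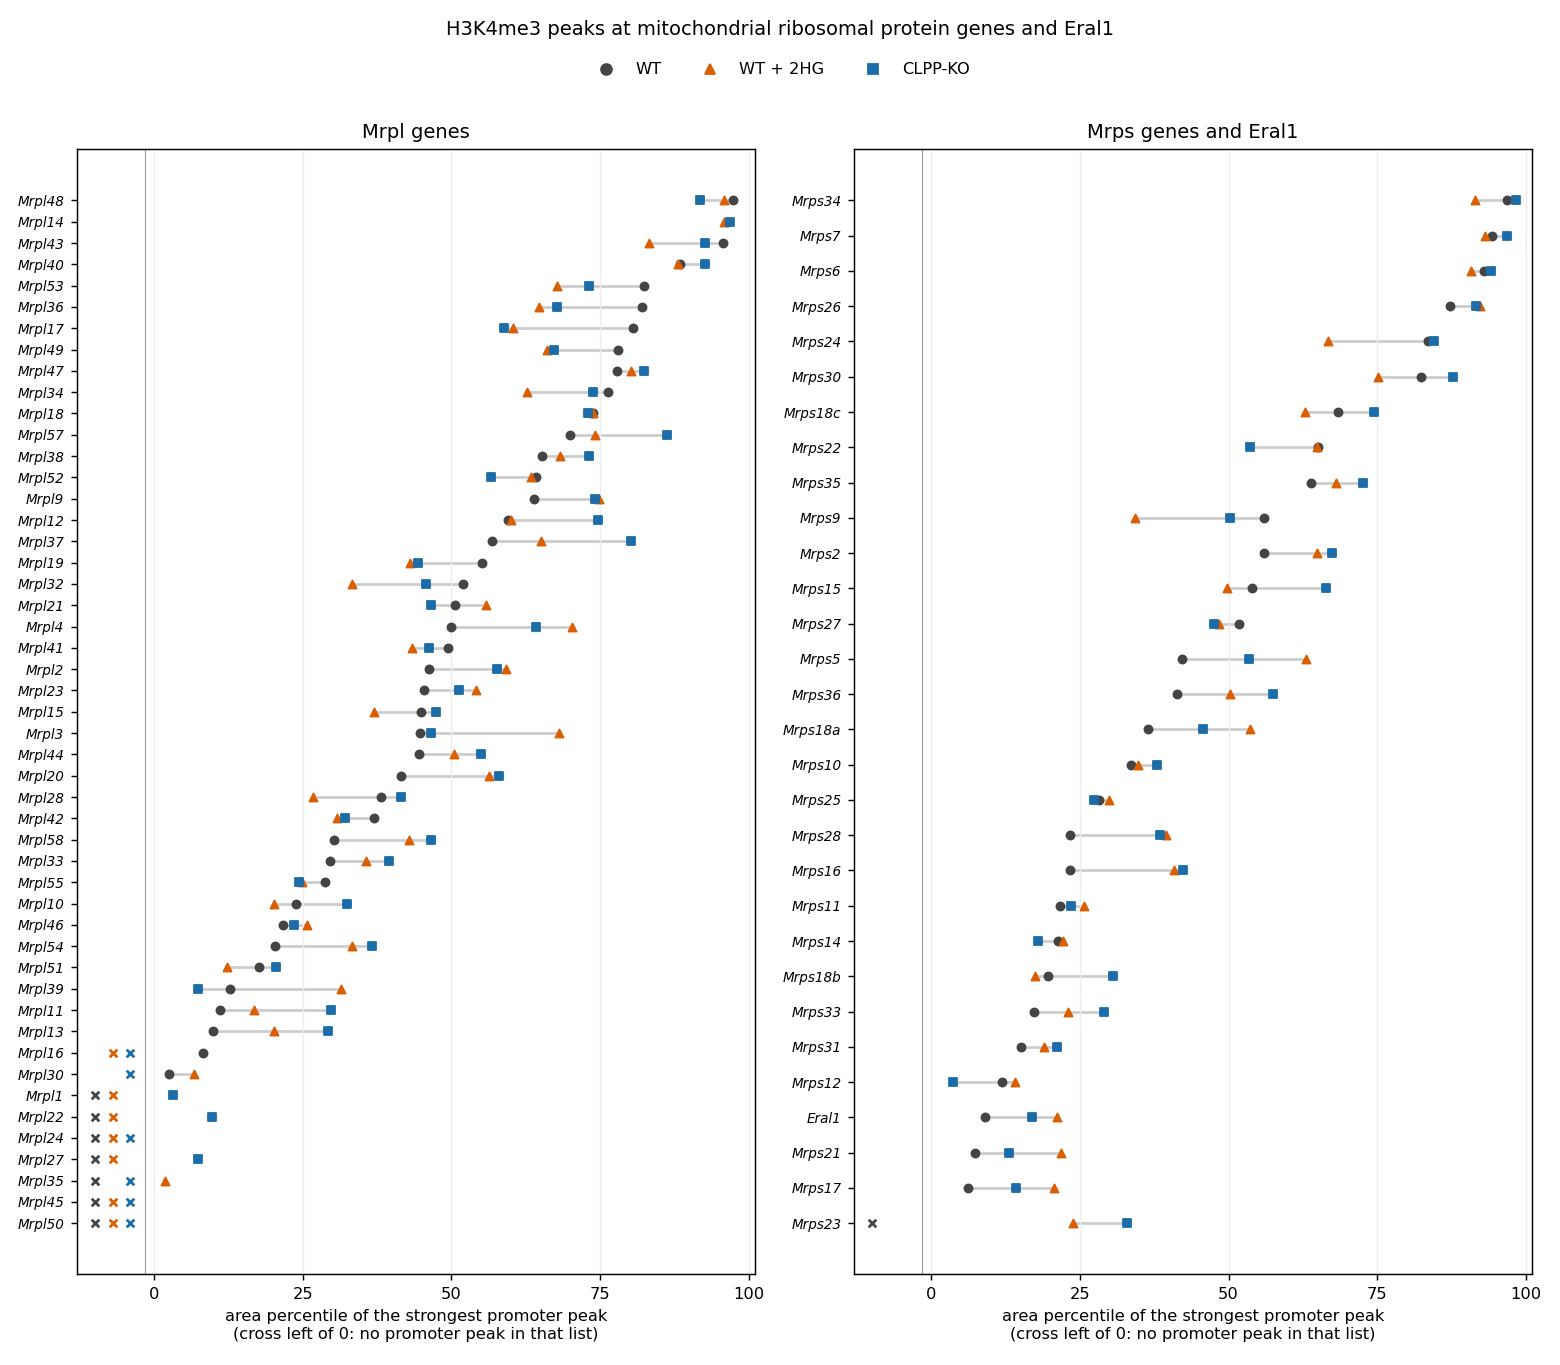
Area percentile of the strongest promoter peak (x axis) of each of the 49 Mrpl genes (left) and of the 29 Mrps genes and Eral1 (right), sorted by the WT value, in WT (circles), WT + 2HG (triangles) and CLPP-KO (squares). Crosses left of 0 mark lists without a promoter peak: 10 genes have at least 1, and the grey bars span the lists.

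Genes known for a function beyond protein synthesis or for an unusual place in the ribosome differed widely in percentile. Mrpl12, whose protein also binds the mitochondrial RNA polymerase, stood at 59.6, 60.1 and 74.6. Mrpl58, a peptidyl-tRNA hydrolase built into the large subunit, stood at 30.2, 42.9 and 46.5. Mrps36, whose product is a part of the 2-oxoglutarate dehydrogenase complex, stood at 41.3, 50.3 and 57.5 and was higher in both treated lists. Mrps30, which despite its symbol belongs to the large subunit, stood at 82.4, 75.2 and 87.8. The paralogs Mrps18a, Mrps18b and Mrps18c, of which MRPS18A is also a large subunit protein, differed from each other in every list: Mrps18a stood at 36.4, 53.6 and 45.7, Mrps18b at 19.7, 17.5 and 30.5, and Mrps18c at 68.4, 62.9 and 74.4. Mrps22, Mrpl3 and Mrpl44, in which human mutations cause respiratory chain disease, stood at 65.0, 64.8 and 53.6, at 44.7, 68.1 and 46.6, and at 44.5, 50.4 and 54.9.

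Against WT, the median difference of the mitoribosomal genes lay below that of all protein-coding genes in the deposited lists, and its sign changed with the scaling. Over the 70 genes with a promoter peak in WT and WT + 2HG the median difference in percentile was 1.97, beside 3.69 over all protein-coding genes, and it was −5.06 with lists of equal size, beside −0.0446 over all protein-coding genes, and −1.71 after subtraction of the median of all genes. Over the 69 genes with a peak in WT and CLPP-KO it was 4.26, beside 5.27 over all protein-coding genes, and it was −3.79 with lists of equal size, beside −0.535, and −1.02 after the subtraction. The cytosolic ribosomal protein genes had medians of −4.01 and −2.16, and the oxidative phosphorylation genes 0.91 and 1.19. Genes 10 percentile points or more above WT numbered 16 in WT + 2HG (22.9%, beside 32.0% of all protein-coding genes) and 20 in CLPP-KO (29.0%, beside 36.1%). Genes 10 points or more below WT numbered 11 in WT + 2HG (15.7%, beside 9.70%) and 5 in CLPP-KO (7.25%, beside 6.56%). With lists of equal size 15 of the 16 and 18 of the 20 higher genes remained above WT, 4 and 2 of them by 10 points or more. Limiting the longer lists leaves WT as it is and can only lower a treated percentile, so this check bears on the higher genes alone. It lowers peaks of small area more than those of large area, and these genes had a lower median area percentile than all marked genes. Their gap from all protein-coding genes with lists of equal size is therefore partly set by the procedure and is not a second observation.

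The WT percentile enters both the level by which genes are split here and the difference from WT, and the median difference over all protein-coding genes fell with the WT percentile too. Among the 16 genes at or above WT percentile 75 the median difference in WT + 2HG was −6.29, and 2 of the 16 were above WT, beside −0.30 and 46.5% of all protein-coding genes at that level. In CLPP-KO the same genes had a median difference of 0.73, and 9 of 16 were above WT, beside 0.09 and 50.7%. Below WT percentile 25 the medians were 5.55 over 19 genes in WT + 2HG and 8.03 over 18 in CLPP-KO, beside 14.71 and 17.43 over all protein-coding genes at that level. Both treated lists share the WT list, so their differences from it are given side by side and not compared as independent. In both, 10 genes were 10 points or more above WT and 4 were 10 points or more below it, 31 were within 10 points of WT in both, and 0 were above in one and below in the other. The joint shares over all protein-coding genes were not computed, so these counts are not read as a trait of the set. List by list, 32.0% and 36.1% of all protein-coding genes were that far above WT, and 9.70% and 6.56% that far below.

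The 4 genes 10 points or more below WT in both treated lists were Mrpl17, Mrpl36, Mrpl19 and Mrpl49, all of the large subunit. Small subunit genes such as Mrps9 and Mrps27 were also below WT in both lists, but not by that margin in both. Mrpl17 had a percentile of 80.5 in WT, against 60.3 in WT + 2HG and 58.9 in CLPP-KO. Mrpl36, which encodes a small protein of bacterial descent, had 82.1, 64.8 and 67.8. Mrpl49 had 78.0, 66.1 and 67.2, with a peak that also covered Fau, and Mrpl19 had 55.1, 43.0 and 44.4. That the WT value was the highest in each follows from how these genes were chosen. The treated values lay close to each other, but both were chosen against the same WT value. The width did not follow the percentile: the Mrpl17 peak was 685 bp wide in WT, against 947 bp with 2HG and 765 bp in CLPP-KO. Mrps22 was 10 points or more below WT in CLPP-KO alone, at 65.0, 64.8 and 53.6. Mrps9 and Mrpl32 were among the 4 furthest below WT in WT + 2HG, with 56.0, 34.2 and 50.2 for Mrps9 and 51.9, 33.3 and 45.8 for Mrpl32. The peak counted for Mrpl32 lay upstream of its canonical start, over a start of Psma2, in every list. A further peak downstream of the Mrpl32 start, from 50 to 341 bp at percentile 10.2, was present in WT + 2HG alone. The Mrps9 peak was also narrower there, at 859, 527 and 597 bp.

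Of the genes furthest above WT in CLPP-KO, Mrpl37 stood at 56.9, 65.1 and 80.3. It stayed 19.0 above WT in CLPP-KO with lists of equal size. Its peak also covered a start of Cyb5rl. Mrpl13 stood at 9.9, 20.2 and 29.3, Mrps16 at 23.3, 40.9 and 42.4, and Mrpl11 at 11.0, 16.7 and 29.8, and with lists of equal size their CLPP-KO differences were 3.5, 6.2 and 3.0. The peak of Mrps16 was 383, 1047 and 838 bp wide, and that of Mrpl13 was 458, 917 and 978 bp. In WT + 2HG the genes furthest above WT were Mrpl3, Mrps5, Mrpl4 and Mrpl39. Mrpl3, which lies near the peptidyl transferase centre, was 23.4 above WT with 2HG and 2.0 above it in CLPP-KO, and Mrps5, at 42.1, 63.1 and 53.4, was 21.0 and 11.3 above. Mrpl4 stood at 50.0, 70.3 and 64.2. With lists of equal size Mrpl3, Mrps5 and Mrpl4 stayed 18.9, 15.9 and 16.2 above WT in WT + 2HG. In CLPP-KO the direction of Mrpl3 turned, to percentile 34.6 against 44.7 in WT, and Mrps5 and Mrpl4 were 0.8 and 6.1 above WT. Mrpl39 stood at 12.7, 31.5 and 7.3, and with lists of equal size it was 9.2 above WT in WT + 2HG and had no peak in CLPP-KO. In the deposited lists its peak was 355 bp wide in CLPP-KO, against 930 bp in WT and 1021 bp in WT + 2HG.

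**Figure D4:**
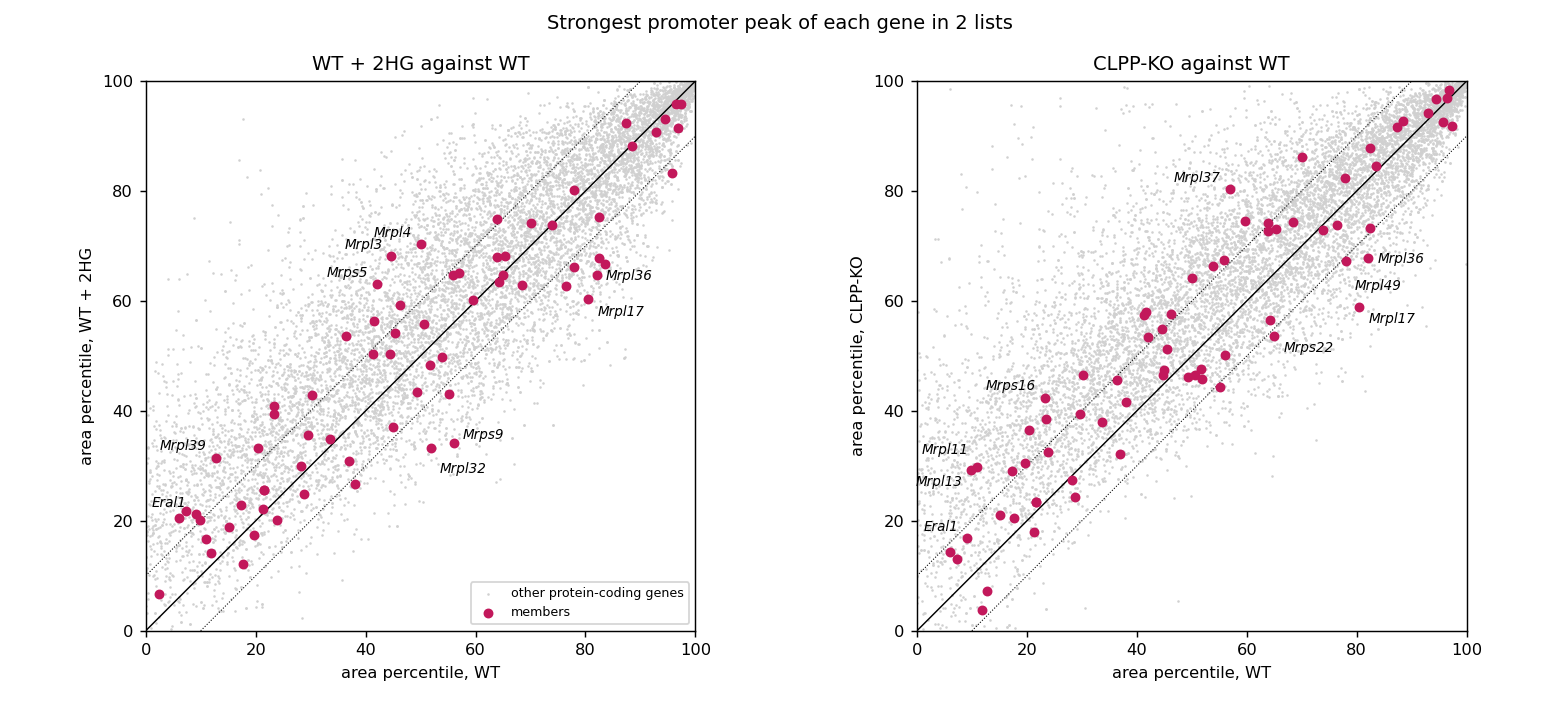
Area percentile of the strongest promoter peak in WT (x axis) against WT + 2HG (left, 70 members) and CLPP-KO (right, 69 members), with the mitoribosomal genes and Eral1 in colour over the other protein-coding genes in grey. The solid line is equality and the dotted lines are 10 points from it: 16 and 20 members lie on or above the upper line and 11 and 5 on or below the lower one.

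Peak width differed little. The median ratio of width to WT was 1.11 in WT + 2HG and 1.07 in CLPP-KO, beside 1.10 and 1.10 over all protein-coding genes, and 48 of 70 and 45 of 69 peaks were wider than in WT (7943 of 11057 and 7927 of 11084 over all protein-coding genes). Peaks 1.5 times wider or more numbered 7 in WT + 2HG (10.0%, beside 16.0% of all protein-coding genes) and 8 in CLPP-KO (11.6%, beside 16.1%). Peaks narrower by the same factor numbered 4 (5.71%, beside 1.71%) and 3 (4.35%, beside 1.58%). Of these, Mrpl54 was compared at different peaks. Its strongest peak was 758 bp wide and upstream of the canonical start in WT, and 424 bp wide and over that start in WT + 2HG. The upstream peak was 1274 bp wide in WT + 2HG, at percentile 31.9. The 12.7 points by which Mrpl54 stood above WT there thus also compare different peaks. Mrpl47 and Mrps34 had a WT peak that was divided in a treated list. Mrpl47 had a single peak of 1598 bp in WT and peaks of 876 and 496 bp with 2HG and of 925 and 618 bp in CLPP-KO. Mrps34, the widest, had 2942 bp in WT and 2885 bp in CLPP-KO, and in WT + 2HG peaks of 1596 and 1092 bp. Mrpl14 with a mean of 2032 bp and Mrpl40 with 2007 bp followed, and Mrps12, Mrpl11 and Mrps31 were narrowest, with means of 314, 433 and 443 bp. The number of promoter peaks also varied at Mrpl2 (2, 3 and 3 peaks), Mrpl30 (1, 2 and 0), Mrpl32 (1, 2 and 1), Mrpl48 (1, 2 and 1) and Mrpl51 (3, 1 and 1). At Mrpl51 the WT peak at percentile 17.7 lay downstream of the canonical start, from 56 to 591 bp, and in both treated lists the remaining peak lay upstream of it.

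The peaks lay mainly over the first bases of the genes. The summit was downstream of the canonical start in 58 of 71 genes in WT, against 56 of 72 with 2HG and 57 of 73 in CLPP-KO, at a median of 239, 190 and 221 bp. These are 81.7%, 77.8% and 78.1% of the marked genes, beside 84.5%, 84.8% and 85.3% of all protein-coding genes with a promoter peak. The peak reached over the canonical start itself in 45 genes in WT (63.4%), 54 with 2HG (75.0%) and 53 in CLPP-KO (72.6%), beside 52.6%, 68.2% and 67.3% of all protein-coding genes with a promoter peak. At Eral1 the WT peak began 52 bp downstream of the start, whereas it began 46 bp upstream in WT + 2HG and 12 bp upstream in CLPP-KO. The strongest WT peak of a gene overlapped some promoter peak of that gene in the treated list, not always the strongest, by at least 1 bp. This held in 69 of 70 genes for WT + 2HG and 68 of 69 for CLPP-KO, beside 99.8% of all protein-coding genes in both.

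**Figure D5:**
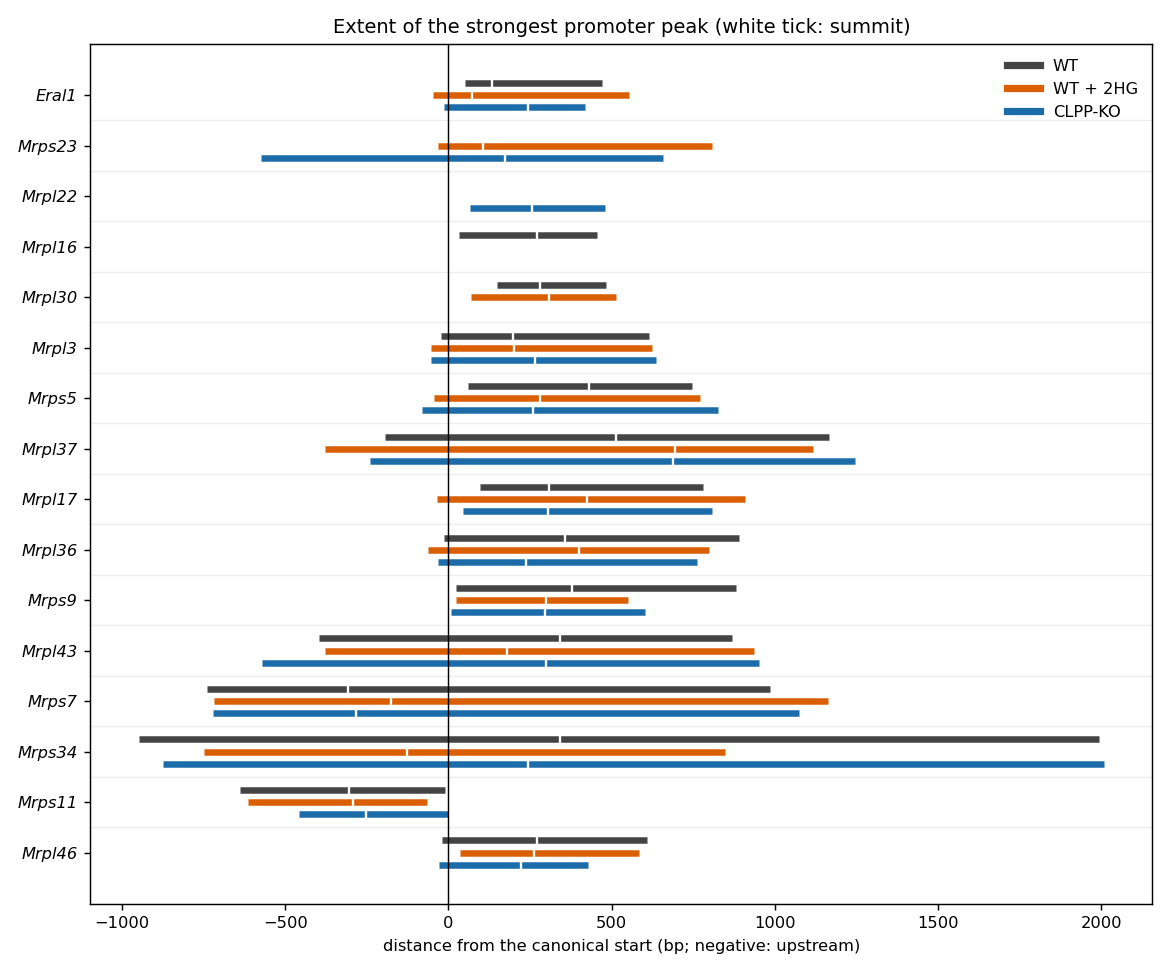
Extent of the strongest promoter peak of 16 genes relative to the canonical transcript start (x axis, bp, negative upstream) in WT, WT + 2HG and CLPP-KO, with the summit as a white tick; no bar means no promoter peak. The Mrps23 peak is missing in WT, the Mrps34 peak is shorter in WT + 2HG, and the Mrps11 and Mrpl46 bars are the same peak seen from either gene.

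The peak counted for many of the genes also covered a start of another gene. The strongest WT peak covered a start of another protein-coding gene in 25 of 71 (35.2%, 25.1 to 46.8%), beside 19.2% of all protein-coding genes with a WT promoter peak. These include Mrpl2, Mrpl34 and Mrpl48, whose counted peak lay at the neighbour and away from their canonical start. For Mrpl34 it lay at Abhd8, from −2000 to −1220 bp, at WT percentile 76.4, and the peak beside its own start stood at 49.7. A protein-coding gene on the opposite strand started within 1000 bp upstream of the canonical start in 14 of the 79 genes (17.7%, 10.9 to 27.6%), beside 5.05% of all protein-coding genes, 8.42% of those with a WT promoter peak, 9.64% of cytosolic ribosomal protein genes and 12.9% of oxidative phosphorylation genes. Some partners act in the same organelle: Sars2 beside Mrps12, Twnk, the mitochondrial DNA helicase, 56 bp from Mrpl43, and Ndufb5, a complex I subunit, under the same peak as Mrpl47. Others were Fau, 52 bp from Mrpl49, Psma2, a proteasome subunit 54 bp from Mrpl32, and Tmem63b, 7 bp from Mrpl14. Mrpl43 stood at percentiles 95.7, 83.3 and 92.6, and for all such genes a peak cannot be divided between the partners. Mrps11 and Mrpl46 were the members that shared 1 peak with each other. It stood at 21.6, 25.7 and 23.5, was 627, 547 and 458 bp wide, and covered the Mrpl46 start in WT while ending 11 bp upstream of the Mrps11 start. Both values above WT turned below it with lists of equal size, by −6.3 and −15.3.

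Other genes of mitochondrial translation, from lists chosen with earlier results of these data known, were marked about as often. A promoter peak was present at 15, 15 and 15 of 16 translation factor genes, 20, 20 and 21 of 24 genes of mitoribosome assembly and ribosomal RNA modification, 20, 21 and 22 of 22 mitochondrial aminoacyl-tRNA synthetase and amidotransferase genes, and all 5 mitoribosomal protein genes with other symbols. Of the last, Dap3, a GTP-binding small subunit protein, stood at 93.2, 93.5 and 95.7 and Aurkaip1 at 81.1, 66.9 and 67.1. The median percentile was 62.6, 56.8 and 55.1 for translation factors, 39.4, 54.1 and 46.8 for assembly, 40.6, 50.8 and 49.4 for synthetases, beside 46.2, 50.3 and 47.6 for the mitoribosomal genes and Eral1.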

How the data were processed

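H3K4me3 ChIP–seq of 12 samples (4 WT, 4 WT + 2HG, 4 CLPP-KO) and 3 inputs was used as 1 deposited peak list per condition. The authors trimmed reads with fastp 0.23.4, mapped them to GRCm39 with BWA 0.7.17 and called peaks with Genrich 0.6.1 on the 4 replicates together, combining p-values by Fisher's method. deepTools 3.5.4 served for coverage plots, which were not analysed here. In the deposited lists the authors give each peak a score limited to 1000, which was not used, a signal equal to the area beneath the curve of −log10 p, and the summit −log10 p. The q field is −1 throughout, and the smallest deposited area was 200.0 in each list. The lists hold no read counts.

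Genes and starts came from GENCODE M39 (78289 genes, 21770 protein-coding), and sequence from the GRCm39 genome. Promoter peaks, percentiles and widths were computed in Python 3.11.15 with numpy 2.4.6, pandas 2.3.3 and scipy 1.17.1, and figures with matplotlib 3.10.9. Ties were averaged in percentiles. Shares have 95% Wilson intervals. The assignment was tested on simulated peaks with known answers, and it assigned all 21770 genes like bedtools 2.31.1 in each list. The members and the gene lists were chosen with earlier results of these data known. Named were Eral1, genes without a peak in at least 1 list, the 3 highest and 3 lowest by mean percentile, the 4 largest differences from WT each way in each treated list, the 3 widest and 3 narrowest, up to 6 genes whose number of peaks differed, genes sharing a peak with another member, and 13 genes for what they are known for. Mrps6, Mrps7, Mrps26, Mrpl19, Mrpl43, Mrpl54, Dap3, Aurkaip1 and the partners of divergent starts were named after their values were seen.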

Additional observations from a re-analysis of the deposited data

How the results depend on the processing

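In all, 13 alternatives gave 200 values, of which 170 kept their direction and stayed within the set margin, 26 moved and 4 turned sign. With lists of equal size by area, the median difference from WT became −5.06 (WT + 2HG) and −3.79 (CLPP-KO), genes gained numbered 1 and 1, lost 2 and 8, 10 points above WT 4 and 2 (20.4% and 18.5% of all protein-coding genes), below 22 and 20 (20.1% and 21.7%), and 1.5 times narrower 1 in CLPP-KO. After subtraction of the median of all protein-coding genes, an alternative added after the data were seen, the medians were −1.71 and −1.02. Then 10 of 70 and 9 of 69 genes were 10 points or more above WT, beside 23.5% and 23.9% of all protein-coding genes. In CLPP-KO 13 of 69 were as far below it, beside 15.1%. At a summit p of at most 1e-05, 13 and 8 genes were gained and 0 lost in both, 4 and 4 were wider and 1 was narrower in CLPP-KO. For this limit and for lists of equal size, the shares gained, lost, wider and narrower over all protein-coding genes were not computed. By area per base the CLPP-KO median percentile was 59.2, and the median over all protein-coding genes was not computed. On that scale 17 of 70 and 8 of 69 genes were 10 points or more below WT, beside 18.2% and 14.9% of all protein-coding genes. By summit p, 10 of 69 were below WT by that margin in CLPP-KO, beside 14.2%. Ranked over coding promoter peaks, the CLPP-KO median was 41.6, with 13 of 69 genes above WT by that margin, beside 31.6%. With summed widths, 2 were narrower in WT + 2HG. The lists are pooled, so no replicate could be left out. No paired analysis was possible because each condition has 1 pooled list and the result comes from no test. In the deposited lists Mrps23 was gained at percentiles 23.8 and 32.9, and the other genes gained or lost had peaks at percentile 9.8 or lower. The part of the caller's limit in these calls was not tested, and the depth of each sample is unknown.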
